A study of Saccharomyces cerevisiae with 6 samples.

Results

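The 97 spots described here lie on an array of probes for yeast open reading frames. Their active transcription signal was lower 30 min after release from alpha factor, while the amount of RNA polymerase on them stayed nearly level. Active transcription was read by genomic run-on (GRO), in which permeabilized cells extend the RNA chains that polymerases have already begun and incorporate a radioactive nucleotide. Total RNA polymerase II was read by chromatin immunoprecipitation (RNAp ChIP). The GRO value of a spot was log2 of run-on RNA divided by the genomic DNA signal of that filter. The RNAp ChIP value was the log2 ratio of immunoprecipitated DNA (IP) to whole cell extract (WCE) of the same replicate. Each hybridization was centred on its median, so that 0 is the middle spot. Spots were selected on measured values: a mean GRO ratio at 30 min at least 1.2 below that at 0 min, and a mean RNAp ChIP ratio within 0.25 of that at 0 min. Of 5642 spots measured in both assays at every time point, 97 met both limits, or 1.72%. The deposited tables give array positions without gene names, so the spots are described as a group and by their position. The paper also mentions rDNA spots, and which kind of probe each of the 97 positions holds is not known. Functions of genes were not analysed here.

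RNA polymerase II must be recruited to a promoter, start, and then elongate through the gene. ChIP detects every polymerase that is crosslinked to the DNA, whether it moves or not. Run-on detects those that are engaged and able to add nucleotides under the assay conditions, so polymerases that have backtracked or stopped on the gene can be present in ChIP and poorly seen in run-on. A gene whose run-on signal is lower at level occupancy therefore has less run-on signal per polymerase. In budding yeast, alpha factor is the mating pheromone that arrests cells of the opposite mating type in G1 at START, and its removal lets them enter the cell cycle together.

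The study used wild type BY4741 cells transformed with plasmid pRS316, which were held in G1 by alpha factor at 1 µg/ml, washed, and sampled at 0, 30 and 60 min after release. All groups therefore shared the strain, the plasmid and the pheromone arrest, and the 0 min group was the arrested culture, not an asynchronous one. There were 6 samples, GRO and RNAp ChIP at each time, with 3 replicates each. Each time point is a population enriched in a cell cycle stage, and separate stages within it cannot be told apart. The sample titles and descriptions exchange 30 and 60 min for RNAp ChIP, and the descriptions were followed. The labels speak of 3 experiments but do not tie a replicate to one, so p-values measure the spread between these hybridizations, which may in part be technical. The 34 hybridizations held 6144 spots each. Their median spot intensity ran from 35.7 to 197 for run-on RNA, from 48.3 to 166 for genomic DNA, from 94.2 to 556 for IP and from 99.6 to 616 for WCE, and 85 to 362 spots in a hybridization had the value 0, which was treated as missing.

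Low run-on with level occupancy was a minority pattern among the spots whose run-on was lower at 30 min. Of 398 spots with a GRO ratio at least 1.2 lower at 30 min, 205 also had an RNAp ChIP ratio more than 0.25 lower, 96 had one more than 0.25 higher, and 97 stayed within the limit, or 24.4%. The level band itself was common. It held 2327 of the 5642 spots, of which the 97 were 4.17%. The opposite pattern, a GRO ratio at least 1.2 higher with level RNAp ChIP, was met by 63 spots.

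**Figure D1:**
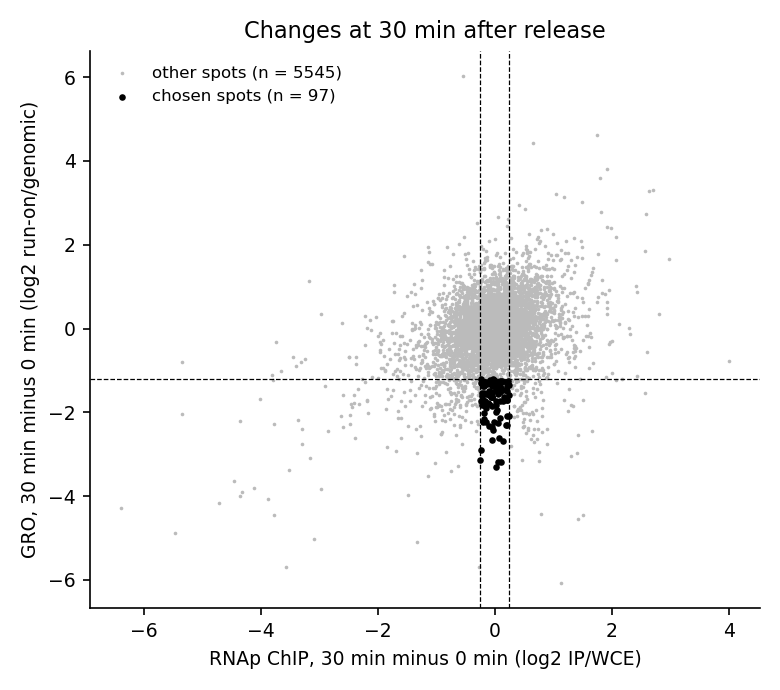
Change in GRO (vertical axis, log2) against change in RNAp ChIP (horizontal axis, log2) from 0 to 30 min for 5642 spots, as means of at least 2 replicates, with dashed lines at the limits of -1.2 and 0.25 in either direction. The 97 chosen spots in black lie against the upper edge of their window, with a median GRO difference of -1.56, and the grey cloud of other spots continues on every side of it.

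The 97 spots were not set apart from their neighbours by a gap. The last spot inside the GRO limit differed by -1.21 and the first spot outside by -1.196, and 22 chosen spots and 22 others with level RNAp ChIP lay within 0.1 of the limit. On the RNAp ChIP side the nearest values were 0.2498 inside and 0.2516 outside. The GRO difference over the chosen spots ran from -3.30 to -1.21. All 18 ratios were measured in 77 of the 97 spots, and the other 20 lacked at most 5. Which spots were chosen depended on the processing. With the mean of all genomic DNA or WCE hybridizations as the denominator 81 spots met the rule, of which 21 were among the 97. Without replicate 2 of every group 51 spots met it, of which 22 were among the 97.

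The GRO ratio of the chosen spots was high for the array at 0 min, a time that the choice used, and below the middle at 30 min. Their median GRO ratio in the 3 hybridizations of 0 min was 0.84, 1.33 and 1.10. At 30 min it was -0.18, -0.46 and -0.42, and at 60 min it was 0.11, 0.45 and 0.40. Every 30 min value lay below every 0 min value, which the choice favours, and the 60 min values lay between both sets. A choice on a lower value at 30 min also favours spots with a high reading at 0 min. The median run-on RNA intensity in the 3 hybridizations of 0 min was 58.3, 58.7 and 53.5 over the chosen spots and 50.0, 63.8 and 70.6 over all. At 0 min 17 of the 97 had a mean GRO ratio below 0. The median GRO ratio at 0 min was 1.199 in the 36 spots with bright denominators, as defined below, and 1.03 in the 61 with a dim one. What raised the ratio at 0 min was not tested. The mean of the 3 hybridization medians of GRO was 1.09 ± 0.24 (SD, n = 3) in the arrested cells, -0.36 ± 0.15 (SD, n = 3) after 30 min and 0.32 ± 0.18 (SD, n = 3) after 60 min. Expressed as a rank among all spots, the median chosen spot went from percentile 81.5 in the arrested cells to 30.6 after 30 min and 64.1 after 60 min. The sign of the level at 60 min was not stable: the spots chosen without replicate 3 had a median of -0.35 at 60 min, and those chosen with the mean denominator had one of -0.64.

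Polymerase occupancy of the same spots was close to the middle of the array at each time. The median RNAp ChIP ratio was -0.09, -0.09 and -0.23 at 0 min, then -0.20, -0.20 and -0.30 at 30 min, and -0.07, -0.03 and -0.05 at 60 min. The means of these medians were -0.14 ± 0.08, -0.23 ± 0.06 and -0.05 ± 0.02 (SD, n = 3 each). The median chosen spot stood at percentile 42.3 of RNAp ChIP at 0 min, 35.9 at 30 min and 42.4 at 60 min. The sign at 60 min was not stable here either: the median of the spots chosen was 0.0060, 0.16 and 0.20 without replicate 1, 2 or 3, and 0.21 with the mean denominator. Levels within the group were wide: at 0 min the mean GRO ratio of single spots ran from -2.45 to 8.98 and the mean RNAp ChIP ratio from -3.76 to 3.11. In the 36 spots with bright denominators these ranges were -2.45 to 4.05 and -2.61 to 2.14. The chosen spots thus did not share one ratio in either assay.

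**Figure D2:**
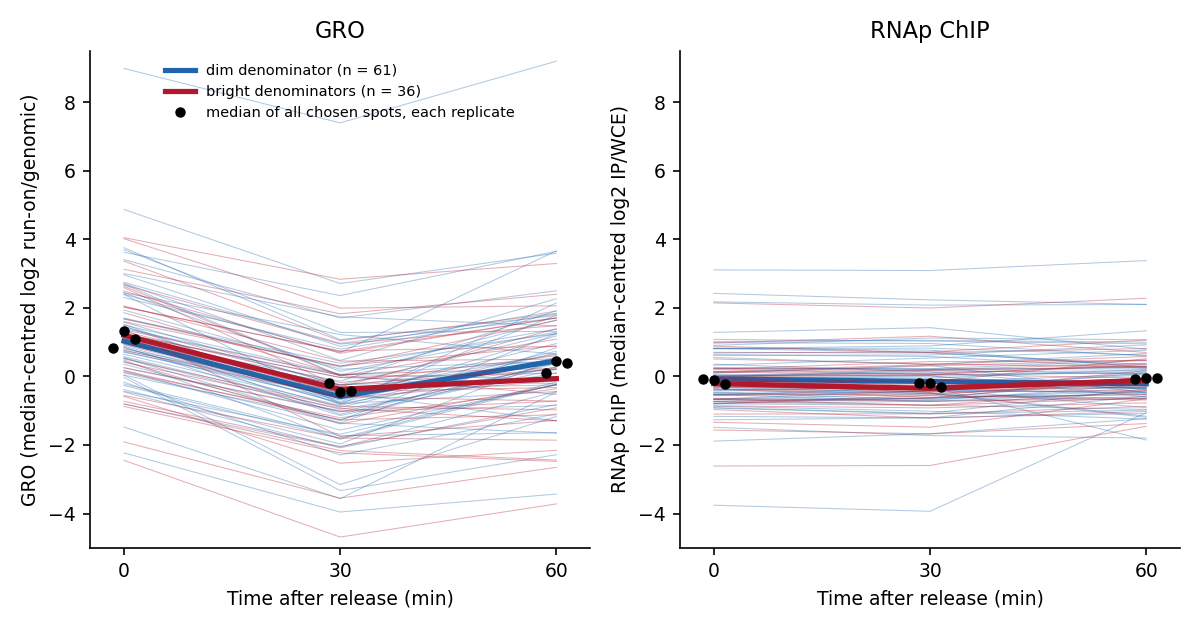
Mean GRO ratio (left) and mean RNAp ChIP ratio (right), in median-centred log2 units, of each of the 97 chosen spots at 0, 30 and 60 min after release, with thin lines for spots, thick lines for the median of 36 spots with bright denominators (red) and 61 with a dim denominator (blue), and black points for the median of all chosen spots in each replicate. In GRO the black points go from 0.84 to 1.33 at 0 min down to between -0.46 and -0.18 at 30 min, whereas in RNAp ChIP all 9 lie between -0.30 and -0.03.

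The statistical call at 30 min is a description, because the same contrast chose the spots. With limma, and Benjamini-Hochberg adjustment over all 5642 spots, 28 of the 97 were below an adjusted p of 0.05 as lower in GRO at 30 min, where 3.42% of all spots were. Without replicate 1, 2 or 3 of every group 0 of the 97 were, against 0.124%, 0% and 0% of all spots. In one fit of both assays, the difference between the GRO and RNAp ChIP changes was called in 10 of the 97 with GRO the lower, against 0.638% of all spots. In 76 of the 97 the available GRO replicates at 30 min lay wholly below those at 0 min, a pattern found in 15.5% of all spots. The other 21 spots therefore met the rule on means whose replicates overlapped.

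The next question was whether the lower run-on persisted at 60 min, a time the choice did not use. The run-on, IP and WCE hybridizations of 60 min were separate from those of the choice, but replicate 2 of GRO at 60 min was divided by the same filter 6 genomic DNA as replicate 3 at 0 min. The GRO ratio was lower at 60 than at 0 min in 80 of the 97 spots, with a median difference of -0.98 and a range from -2.67 to 1.27. Against 30 min it was higher in 84 of the 97, with a median difference of 0.86. Both comparisons share their reference hybridizations with the choice, which favours a low 60 min value against 0 min and a high one against 30 min. Of the 97 spots, 12 fell between 0 and 60 min with limma, against 1.83% of all spots, and 1 rose between 30 and 60 min, against 0.425%. With the replicate number as a block these counts were 4 and 0. In that fit 0.798% of all spots fell between 0 and 60 min, and 5 of 5642 rose between 30 and 60 min. Without replicate 1, 2 or 3 of every group, neither comparison called any of the 97. At most 2 of all spots then fell between 0 and 60 min, and 0 rose between 30 and 60 min. The GRO replicates at 60 min lay wholly below those at 0 min in 43 of the 97 (13.7% of all spots), and wholly above those at 30 min in 32 (11% of all spots).

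A further comparison set 60 min against the midpoint of 0 and 30 min. Were the replicate spread equal at 0 and 30 min, the choice would not favour either side of the midpoint through the noise of these hybridizations. The spreads were not quite equal, with a median SD of GRO replicates over all spots of 0.39 at 0 min and 0.34 at 30 min, and the filter 6 genomic DNA is shared by 0 and 60 min. Over the chosen spots this median SD was 0.53 at both times. A larger spread at 0 min would favour values below the midpoint, by an amount that was not tested. The median GRO difference from the midpoint was -0.06, with 53 spots below it and 44 above, against a median of -0.03 and 53.1% below over all spots. For the spots chosen without replicate 3 this median was -0.50, and with the mean denominator it was -0.36. With limma 0 of the 97 passed an adjusted p of 0.05, where 0.284% of all spots did, and the smallest adjusted p was 0.0938. At an unadjusted p under 0.05 there were 19, against 13% of all spots, of which 18 lay below the midpoint, against 7.78% of all spots. The median standard error of this difference was 0.44, so smaller departures of single spots could not be resolved.

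RNAp ChIP stayed near its earlier level in median. The median difference from the midpoint was 0.10, with 60 of the 97 spots above it, against a median of 0.02 over all spots, and single spots ran from -1.43 to 2.79. With limma 0 of the 97 passed, against 1.6% of all spots, with a smallest adjusted p of 0.138 and a median standard error of 0.24. At an unadjusted p under 0.05 there were 7, against 13.8% of all spots. Between 60 and 0 min 0 of the 97 passed with limma (2.62% of all spots), with 4 at an unadjusted p under 0.05 (14.3%). Between 60 and 30 min 0 passed (1.95%), with 6 at an unadjusted p under 0.05 (17.1%). Both contrasts reuse hybridizations on which the spots were chosen as level, which may favour few calls. RNAp ChIP replicates of the chosen spots also spread more, with a median SD at 0 min of 0.38 against 0.31 for all spots. These low counts therefore do not show that occupancy was unchanged. With the RNAp ChIP times exchanged as in the titles, the rule chose 119 spots, of which 51 were among the 97, and 9 of the 119 passed in RNAp ChIP, against 5.78% of all spots. Their median RNAp ChIP difference from the midpoint was then -0.15.

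The difference between the assays at 60 min was tested directly, in the same fit of 18 ratios. With limma 0 of the 97 passed an adjusted p of 0.05, against 0.0177% of all spots, and the smallest adjusted p was 0.122. At an unadjusted p under 0.05 there were 15, against 10.1% of all spots, and in 13 of them GRO was the lower, against 6.04% of all spots. A separation of the assays at 60 min that differed from the mean of 0 and 30 min was thus not shown for any single chosen spot.

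**Figure D3:**
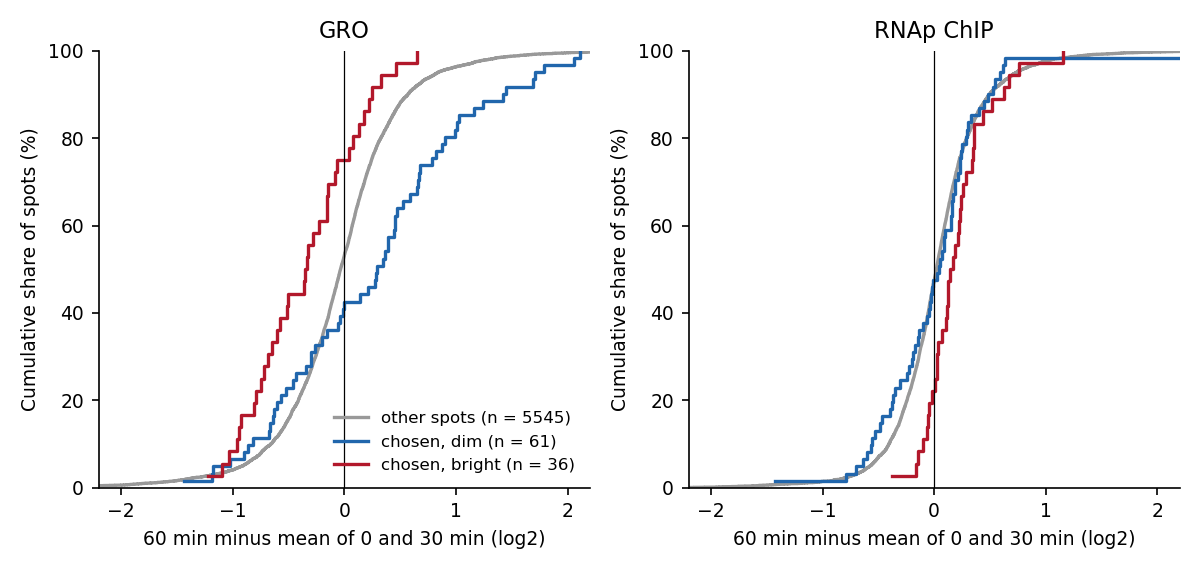
Cumulative share of spots (vertical axis, percent) by the difference of 60 min from the mean of 0 and 30 min (horizontal axis, log2) in GRO (left) and RNAp ChIP (right), for 36 chosen spots with bright denominators, 61 with a dim denominator and all 5545 other spots. In GRO the bright curve lies to the left, with a median of -0.34, and the dim curve to the right, with a median of 0.29; in RNAp ChIP the dim curve crosses 0 close to the other spots and the bright one lies slightly to the right, with a median of 0.16.

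Among spots with all 18 ratios and no overlap of GRO replicates between 0 and 30 min, R4 - C12 : 6 and R2 - C2 : 12 had the deepest GRO difference. The spot in array row 4, column 12, position 6 (R4 - C12 : 6) had GRO ratios of 1.64, 2.94 and 2.60 at 0 min, -1.61, -0.52 and -0.25 at 30 min, and 0.10, -0.07 and 0.80 at 60 min. Its RNAp ChIP ratios were 0.25, -0.66 and -0.81, then -0.41, -0.20 and -0.30, then 0.63, -0.19 and -0.30. The GRO replicates of the 3 times did not overlap in any pair of times, and the RNAp ChIP replicates of all 3 times did. Its denominators were dim, at percentile 16.4 of genomic DNA and 10.5 of WCE. The GRO difference at 30 min was -3.19 ± 0.46 (SE, n = 3 per time), with a limma adjusted p of 0.00865 that the choice made likely. At 60 min the ratio differed from the midpoint by -0.53 ± 0.40 (SE), with a limma adjusted p of 0.623.

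The spot R2 - C2 : 12 kept its lower GRO ratio to 60 min. Its GRO ratios were 1.03, 2.55 and 0.58 at 0 min, -1.93, -1.88 and -1.45 at 30 min, and -0.96, -1.39 and -1.49 at 60 min. The 0 min values stand above all later ones, and those of 30 and 60 min overlap. Its RNAp ChIP ratios were -0.62, -1.23 and -1.05, then -1.07, -1.17 and -1.41, then -1.05, -0.97 and -1.04. Occupancy was thus low for the array at each time, and its RNAp ChIP replicates of 0 min overlapped those of both later times. Its RNAp ChIP difference at 30 min was -0.2498, the closest of the 97 spots to the limit of 0.25. Its genomic DNA was bright, at percentile 72.8 of all spots. GRO at 60 min differed from 0 min by -2.67 ± 0.46 (SE), with a limma adjusted p of 0.0272, and from the midpoint by -1.10 ± 0.40 (SE), with a limma adjusted p of 0.301. The spot was picked in part on its 0 min values, which favours the difference from 0 min.

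Among the remaining spots with all 18 ratios, the highest GRO values at 60 min against the midpoint belonged to spots that rest on very dim genomic DNA. The spot R12 - C13 : 10 had GRO ratios of -0.67, -0.06 and 7.92 at 0 min, 0.43, 0.68 and 0.99 at 30 min, and 1.73, 8.05 and 1.21 at 60 min. The values of 7.92 and 8.05 came from the same filter, filter 6, on which its genomic DNA intensity was 0.059. In replicates 1 and 2 its GRO ratio was higher at 30 than at 0 min, so this spot met the rule through 1 hybridization. It differed from the midpoint by 2.12 ± 2.07 (SE), with a limma adjusted p of 0.711. The spot R8 - C19 : 13 had GRO ratios of 1.38, 0.03 and 3.18 at 0 min, 0.77, 0.02 and -3.24 at 30 min, and 2.40, 2.70 and 1.33 at 60 min. Its genomic DNA intensity was 2.60 on filter 6, which holds the ratio of 3.18, and 128 on filter 4, which holds the ratio of -3.24. The 60 min ratios of 2.40, 2.70 and 1.33 were read on filters 5, 6 and 7, where its genomic DNA intensity was 1.935, 2.60 and 33.5. It differed from the midpoint by 1.79 ± 0.94 (SE), with a limma adjusted p of 0.454.

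Dim denominators were frequent across the chosen spots. When all spots were ranked by mean genomic DNA, 54 of the 97 stood in the dimmest 25%, 27 in the next 25%, and 8 in each of the brighter groups of that size. The median chosen spot stood at percentile 21.2 of genomic DNA and at percentile 20.3 of WCE. Of the 97, 53 stood in the dimmest 25% of WCE, and 46 in the dimmest 25% of both. A GRO ratio lower by at least 1.2 at 30 min, whatever the RNAp ChIP, was found in 13.9% of all spots in the dimmest of these 4 genomic DNA groups and in 5.53%, 2.70% and 6.09% of the successively brighter ones. On filter 3, used for replicate 2 of 0 min, the median genomic DNA intensity was 19.4 over the chosen spots and 55.0 over all, and on filter 6 it was 32.4 and 82.4. Over the chosen spots, GRO replicates had a median SD of 0.53, 0.53 and 0.40 at 0, 30 and 60 min, against 0.39, 0.34 and 0.32 for all spots.

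**Figure D4:**
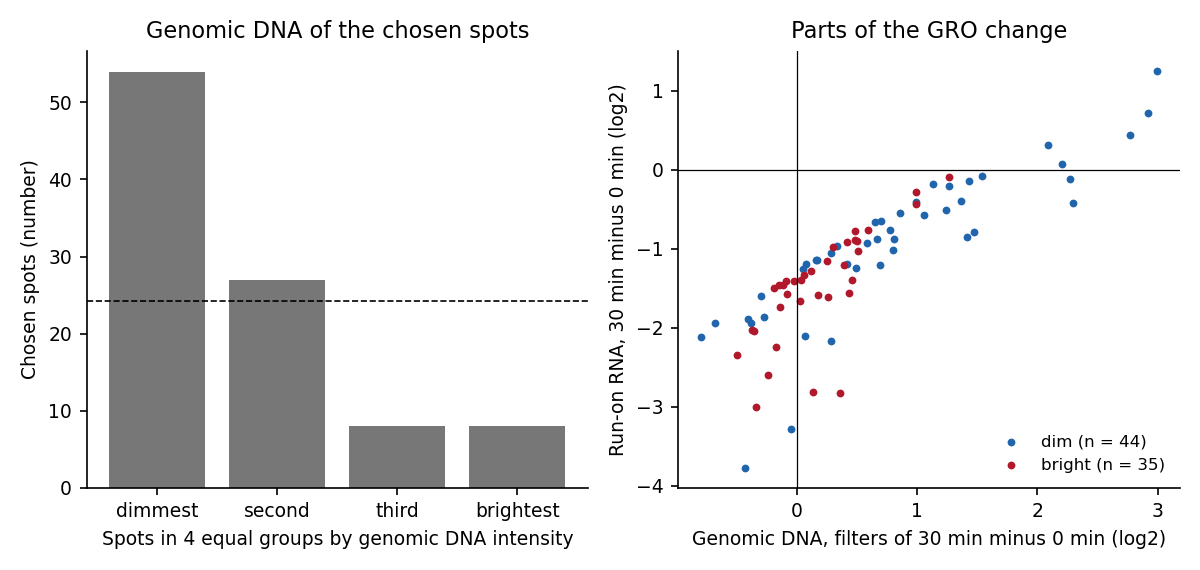
Left, number of the 97 chosen spots in each of 4 equal groups of all spots by mean genomic DNA intensity, with a dashed line at an equal share; right, difference between 30 and 0 min of the run-on RNA (vertical axis, log2) against that of the genomic DNA on the filters used (horizontal axis, log2) for 79 chosen spots with all values. The dimmest group holds 54 spots, and at the right edge dim spots in blue combine brighter genomic DNA on the filters of 30 min with little difference in run-on RNA.

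The GRO ratio can be lower through the run-on RNA or through the genomic DNA of the filter. In the 79 chosen spots with all intensities at 0 and 30 min, the median-centred log2 run-on RNA was lower at 30 min in 74, with a median of -1.15. Over all spots it was lower in 2672 of 5225, with a median of -0.02. The choice was made on the ratio of run-on RNA to genomic DNA, so it favours lower run-on RNA and higher genomic DNA at 30 min. Genomic DNA, which does not depend on the cells sampled, was higher on the filters of 30 min than on those of 0 min in 58 of them, with a median of 0.39 against 0.01 over all spots. Replicate 1 of 0 and of 30 min were hybridized to the same filter, filter 1, where the genomic DNA cancels. There the difference had a median of -1.19 and was negative in 88 of 94 spots, against a median of -0.004 over all spots. Replicate 3 of 0 min and replicate 2 of 60 min shared filter 6, where the difference between 60 and 0 min had a median of -0.57 and was negative in 83 of the 97, against -0.04 and 53.7% over all spots. These single-filter values share hybridizations with the choice.

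The spots were then divided by the brightness of their denominators, a division made after their values were seen and given as a description. The 36 bright spots were those with neither mean genomic DNA nor mean WCE in the dimmest 25%, and they were 0.894% of the 4028 bright spots on the array, whereas the 61 dim ones were 3.78% of 1614. In the bright spots the median GRO ratio at 0, 30 and 60 min was 1.199, -0.38 and -0.06. Run-on RNA was lower at 30 min in 35 of 35 bright spots with all values, with a median of -1.41, and the genomic DNA differed by a median of 0.13. In the 44 dim spots with all values these medians were -0.88 and 0.69. On filter 1 alone the GRO ratio was lower at 30 min in 36 of 36 bright spots, with a median of -1.35. Both parts of the ratio and the filter 1 hybridizations were used by the choice, which favours these counts.

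At 60 min the bright spots lay between their levels at 0 and 30 min, nearer to the latter. GRO was higher at 60 than at 30 min in 29 of 36, with a median difference of 0.46. It was lower at 60 than at 0 min in 36 of 36, with a median of -1.19, and on filter 6 alone in 34 of 36, with a median of -0.91. Both comparisons share hybridizations with the choice, which favours a low value against 0 min and a high one against 30 min. Against the midpoint the median was -0.34 and 27 of 36 lay below it, where the median of all bright spots was -0.04 and 53.9% lay below. The dim spots had a median of -0.59 at 30 min and 0.46 at 60 min, with a median of 0.29 from the midpoint and 35 of 61 above it. Filter 6 served both a 0 min and a 60 min replicate, so a dim genomic reading on it raises both of those times; its part in the value of the dim spots was not tested. RNAp ChIP of the bright spots stood 0.16 above its midpoint in median, with 28 of 36 above, against a median of 0.02 for all bright spots.

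With limma on the 4028 bright spots alone, 29 of the 36 fell in GRO at 30 min, the contrast that chose them, where 6.9% of bright spots did. At 60 against 0 min, where the choice also favours a fall, 20 of the 36 fell, against 4.34% of bright spots. Without replicate 1, 2 or 3 this count was 8, 0 and 10, against 2.11%, 0.174% and 2.63% of bright spots. Below the midpoint at 60 min 2 of the 36 passed, against 0.794% of bright spots, and 0, 0 and 1 without replicate 1, 2 or 3, against 0.124%, 0% and 0.372%. The first of these had mean GRO ratios of 1.36, 0.03 and -0.52 at 0, 30 and 60 min and a difference from the midpoint of -1.22 ± 0.27 (SE), with a limma adjusted p of 0.0497. The other had -0.80, -2.16 and -2.44, with a difference of -0.96 ± 0.20 (SE) and a limma adjusted p of 0.0346. In both, the mean GRO ratio was lower still at 60 min than at 30 min, and the mean RNAp ChIP ratio at 60 min was 0.16 and 0.38 above that at 0 min. Both were singled out after their values were seen.

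Because the choice used every replicate of 0 and 30 min, the rule was also applied to 2 replicates of each assay, and the third was read. When replicate 1 was left out, 114 spots were chosen, and their median GRO change in replicate 1 was -0.79, lower in 97 of 113. When replicate 2 was left out, 52 spots were chosen, with a median of -1.07 and 38 of 47 lower. When replicate 3 was left out, 114 were chosen, with a median of -0.91 and 88 of 109 lower. The direction was thus kept in most spots of each replicate, at a smaller size than the medians of -1.56, -1.59 and -1.63 in the replicates that made the choice. Between 49.4% and 51.0% of all spots were lower in the same replicates.

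The level occupancy was carried over less well than the lower run-on. In the replicate left out, 33 of 113, 21 of 47 and 41 of 109 spots passed the GRO limit again, or 29.2%, 44.7% and 37.6%, against 5.50%, 11.0% and 9.86% of all spots. RNAp ChIP was within 0.25 in 35 of 113, 12 of 51 and 38 of 112, or 31.0%, 23.5% and 33.9%, against 33.5%, 39.8% and 30.2% of all spots. A spot chosen as level in 2 replicates was therefore level in the third at a share near to or below that of any spot. Both limits were met again by 6 of 114, 4 of 52 and 11 of 114 chosen spots, a few of which lacked a ratio there. The share of all spots that met both limits in these replicates was not determined. Whether the counts exceed that share is therefore not known.

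**Figure D5:**
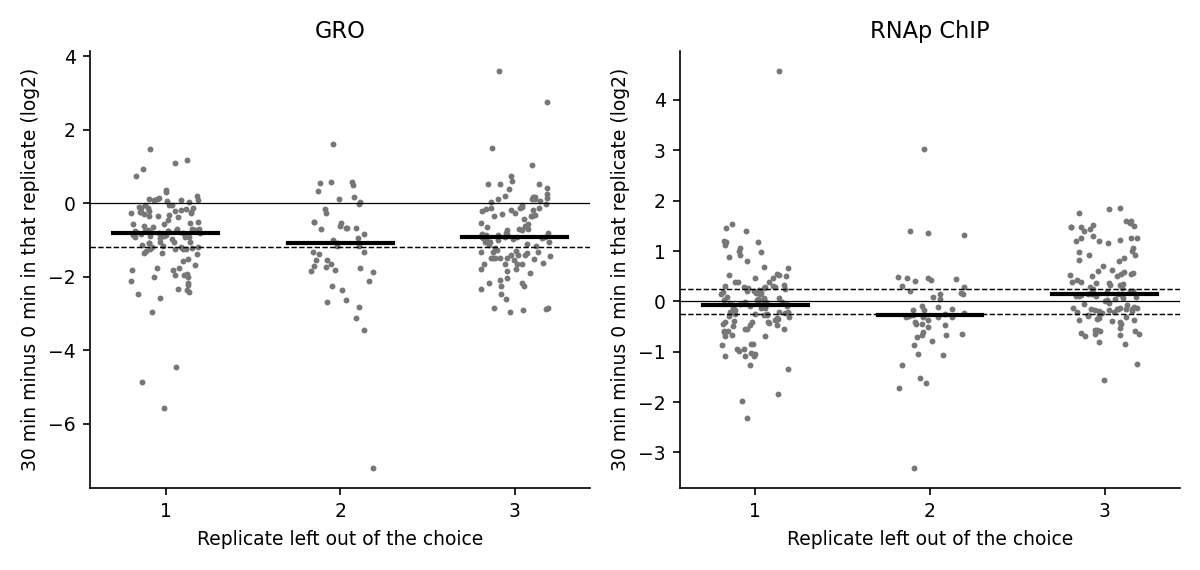
Change from 0 to 30 min in GRO (left) and RNAp ChIP (right), in log2, in the replicate left out when spots were chosen on the other 2, with a point for each spot, a bar at the median and dashed lines at the limits of the rule. The GRO medians are -0.79, -1.07 and -0.91, and the RNAp ChIP medians -0.08, -0.27 and 0.14, with many points outside the 0.25 band on both sides.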

How the data were processed

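Spot intensities from nylon filters carrying whole-ORF PCR products, hybridized with 33P-labelled run-on RNA, genomic DNA, IP or WCE DNA and read on a phosphorimager, were deposited by the authors after background subtraction and are not normalized to each other. Ligation-mediated PCR was used to amplify IP and WCE material, which can change relative amounts. Background values were not used here, so no minimum over background was applied. The label of GRO at 30 min names replicates 1 and 2; 3 hybridizations were analysed. Ratios required both intensities above 0, and spots needed 2 of 3 replicates at every time in both assays. Missing ratios were left out of the fit of their spot. The arrays' number limits the precision.

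Contrasts were fitted with limma 3.58.1 (lmFit, eBayes) in R 4.3.3 on 9 ratios of an assay, or all 18 in 6 groups for the difference, with Benjamini-Hochberg adjustment over all spots and a threshold of 0.05; the code was tested on simulated data. Other steps used Python 3.11.15 with numpy 2.4.6, pandas 2.3.3 and matplotlib 3.10.9. Named spots had all 18 ratios: the 2 with the largest GRO fall at 30 min without overlap of replicates, and, of the rest, the 2 highest at 60 min against the midpoint. The members, lists and tests were chosen with earlier results of these data known. Alternatives covered the replicates required, the denominator, dim spots, normalization, array position, replicates left out, z-scores, the replicate block, the limits of the rule and the RNAp ChIP labels.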

Additional observations from a re-analysis of the deposited data

How the results depend on the processing

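Of 101 values recomputed under an alternative, 72 stayed within the replicate spread or within 1.5 times their count and 29 did not, and the cause was not tested unless stated. Membership was the least stable result. With the mean of all genomic DNA or WCE hybridizations as denominator, 81 spots were chosen, of which only 21 were among the 97; the 60 min medians were -0.64 for GRO and 0.21 for RNAp ChIP, those against the midpoint -0.36 and 0.33, and 2 spots were called in GRO. Without dim denominators, which removes spots by construction, 36 remained, with medians of -0.064 and -0.11 at 60 min, a GRO median of -0.34 against the midpoint, 2 calls in GRO and a median of -1.07 in the replicate left out. Without replicate 1, 2 or 3 the number chosen ran from 51 to 114, with 22 to 49 of the 97 among them; the GRO median at 60 min ran from -0.35 to 0.54, that of RNAp ChIP from 0.0060 to 0.20, the GRO median against the midpoint from -0.50 to 0.00027, and RNAp ChIP had 0 to 1 call. With all 3 replicates required, RNAp ChIP at 60 min had a median of -0.012 and GRO a median of -0.20 against the midpoint. Quantile normalization gave -0.17 for RNAp ChIP at 60 min. Removal of array block medians chose 91 spots, with 44 of the 97 among them, and 1 call in RNAp ChIP. With RNAp ChIP times exchanged, its median was -0.17 at 60 min and -0.15 against the midpoint, with 9 calls, and the difference between assays had 2, against 5.78% and 4.18% of all spots. A GRO limit of 1.5 left 56 spots and an RNAp ChIP limit of 0.15 left 63. Leaving out single hybridizations of 0 or 30 min, an alternative added after seeing the data, chose 78 to 120 spots, with 52 to 81 of the 97 among them. The share of all spots called was not determined for the mean denominator, block medians or, in RNAp ChIP, the replicates left out. Those counts of calls therefore cannot be set against a background.

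Neither replicate numbers nor shared filters were treated as pairs in the main fit. Deviations of equal numbers correlated at 0.51, 0.13 and 0.17 between GRO at 0 and 30 min for replicates 1, 2 and 3. Of these, only replicate 1 had the same filter, filter 1, at both times. The correlations were -0.38 to 0.12 between 0 and 60 min and -0.11 to 0.13 over the RNAp ChIP pairs. With the replicate block, GRO and the difference had 0 calls against the midpoint and RNAp ChIP had 1. The share of all spots called in RNAp ChIP was not determined there. With the same block 20 of the 97 fell in GRO at 30 against 0 min (2.06% of all spots) and 4 at 60 against 0 min (0.798%). In its fit of bright spots 18 of 36 fell at 60 against 0 min (3.87% of bright spots) and 1 lay below the midpoint (0.571%).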

Other observations

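The 97 spots were spread over the filter. They lay in 81 of 384 blocks, 15 of which held more than 1 and none more than 3. Every one of the 16 array rows held between 4 and 12 of them, with the most in row 15. Column 6 held none among its 239 measured spots and column 13 held 10, and of the 16 positions within a block, position 7 held none among 376 measured spots and position 5 held 9.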
